A study of Mus musculus with 24 samples.

Results

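Spleens of BALB.K mice taken 24 hours after 300 cGy of total body irradiation were compared with spleens of resting BALB.K mice that received 0 cGy. By the strain and dose in the labels, 6 of the 24 one-colour arrays belong to this comparison, 3 of each group. Each array carried Cy3-labelled RNA pooled from 3 mice, so the spread between arrays is that between pools, and the labels do not give the sex of the animals. The irradiator was an XRAD320, and RNA came from whole spleen homogenised in TRIzol and cleaned on RNeasy columns. Further arrays, also 3 a group, hold BALB.K mice at 400 and 800 cGy and B10.BR mice at 0, 300, 500 and 900 cGy, and of these the 400 cGy group and B10.BR at 300 and 0 cGy are used below for contrast. Both strains are inbred and carry the k haplotype of the mouse major histocompatibility complex, BALB.K on the BALB and B10.BR on the C57BL background. No transgene or deletion is named for any group.

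Ionising radiation breaks DNA, and the kinases that sense the breaks stabilise the transcription factor p53, which switches on genes that stop the cell cycle, start apoptosis or aid repair. The mouse spleen combines white pulp, made of B and T lymphocytes, with red pulp, where macrophages take up aged red cells and where, unlike in adult humans, red cells are still formed. Dividing precursors and resting lymphocytes are among the most radiosensitive cells of the body, whereas macrophages and stromal cells endure much higher doses.

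Signals are given in units in which each array's 75th percentile is 1000. Changes are log2 ratios of 300 over 0 cGy ± the standard error of a linear model (limma) fitted to all 24 arrays, and rose and fell are used of genes with a Benjamini-Hochberg adjusted p below 0.05 over 29524 features. In whole-organ RNA, fewer cells of a type and less RNA per cell cannot be told apart, nor can more cells and more RNA per cell. Since signals are scaled per array, a rise or fall is relative to the rest of the array's signal. Between 69.0% and 73.8% of probes were well above background on these 6 arrays. Markers of the spleen's resident cells were well above background on all 6, among them Ms4a1 of B cells, Spic of red pulp macrophages and Ccl19 of the stroma that organises the white pulp. The slides divide the groups unevenly: slide 2 holds all 0 cGy arrays and replicate 1 at 300 cGy, and slide 3 holds replicates 2 and 3 at 300 cGy. With slide as a block 11459 features were called, and of the 13816 features called without it 9975 kept their call. Within slide 2 there is 1 irradiated array and so no test, and since the calls of the whole comparison were made with these arrays, their direction there is no check of them. The Y-linked gene Ddx3y was at 4353, 2.60 and 2.13 units at 300 cGy and 5440.2, 3.91 and 2.92 units at 0 cGy, above background on replicate 1 of each group only. Its counterpart Xist, transcribed from an inactive X chromosome, was lowest on those arrays, at 53.3, 101 and 197 units at 300 cGy and 19.7, 195 and 206 units at 0 cGy. The probe of Ddx3y lies in the dim corner of replicate 2 at 0 cGy described below, so its 3.91 units there may read too low. Without replicate 1 of both groups, 13586 features were called. Genes of the exocrine pancreas, an organ that lies against the spleen, held 1.11%, 0.247% and 0.0360% of all signal at 300 cGy and 0.150%, 0.0242% and 0.00581% at 0 cGy, and their part in the results was not tested beyond the fit given in the closing section.

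One array carried a local fault. On replicate 2 at 0 cGy, 860 spots were at least 4-fold below the other 0 cGy arrays, and 842 of them lay in 1 corner of the grid, that of the last rows and columns. On the other 5 arrays 81 to 393 spots were that low, 3 to 72 of them in the same corner. The corner holds a spot for 1954 features (6.62% of those tested), and a gene read there can look raised by irradiation because its 0 cGy mean is pulled down. With those spots left out, an alternative chosen after seeing the data, 13931 features were called, 6050 higher and 7881 lower. Genes with a probe in the corner are named as such below where their change is given, with both values where it moved.

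**Figure D1:**
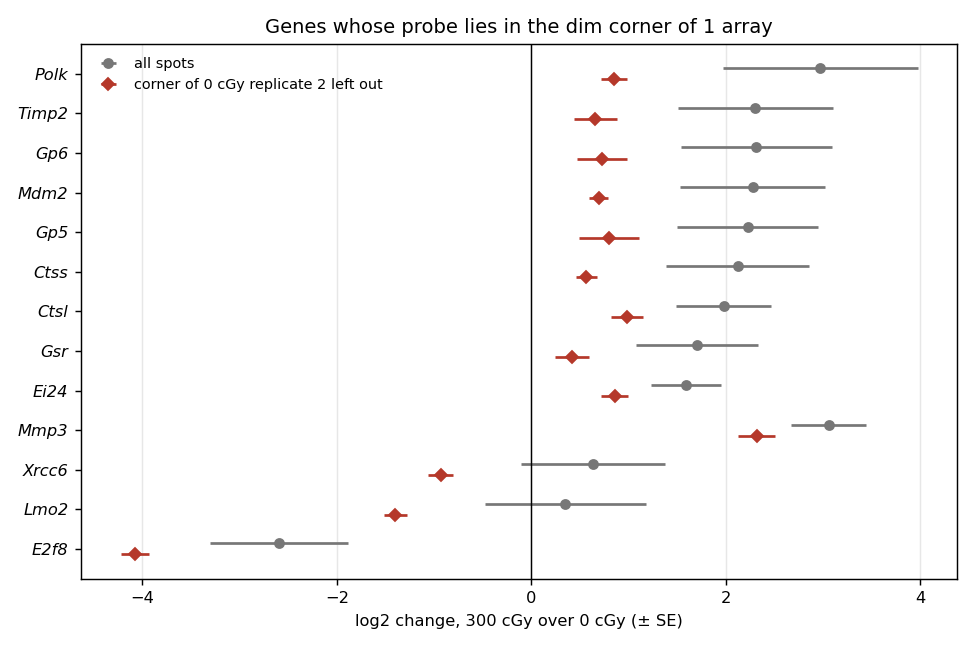
Log2 change from 0 to 300 cGy (horizontal axis, with standard error bars) of 13 genes whose probe lies in the dim corner, with all spots (grey circles) and with the corner of replicate 2 at 0 cGy left out (red diamonds). Mdm2 moves to 0.69, Polk to 0.85 and Timp2 to 0.66, Lmo2 and Xrcc6 change sign, and E2f8 falls further, to -4.08.

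Irradiation at 300 cGy moved a large part of the spleen's measured genes. Of 29524 features 13816 were called (46.8%), 6125 higher (20.7%) and 7691 lower (26.0%). At least 4-fold changes were fewer, with 228 features higher and 620 lower. The median change of all features was -0.12, against which the medians of gene lists below are to be read. Higher calls were 44.3% of all calls, and 61.9% with median scaling, which moved the median of all features by 0.177 and left 7740 features higher and 4771 lower. Spike-in scaling, in which 10 probes for added control RNA set the level of each array, left 6430 features called, 2764 higher and 3666 lower, and counts of list members under it are given where a count of more than 3 moved by over 1.5 times. Groups that did not overlap, with every 300 cGy array above every 0 cGy array, were found for 6259 features (21.2%), and 7789 (26.4%) had every 300 cGy array below.

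**Figure D2:**
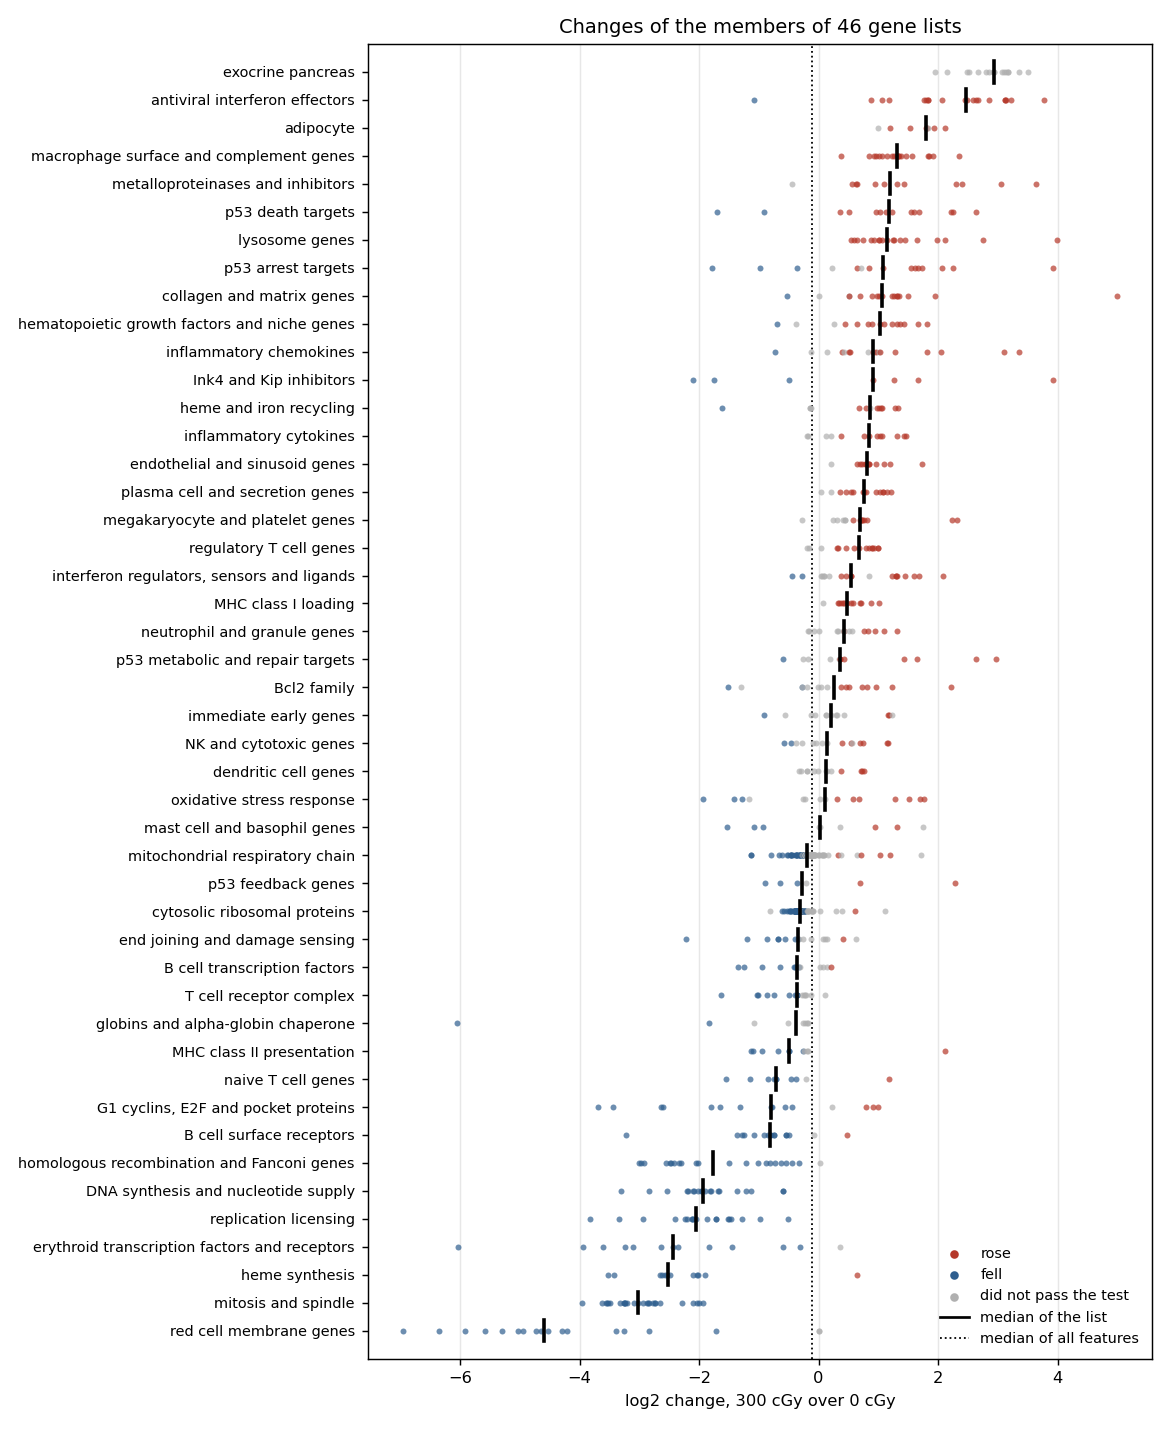
Log2 change from 0 to 300 cGy (horizontal axis) of each tested member of 46 gene lists, 1 point a gene, in red where it rose, blue where it fell and grey where it did not pass, with the list's median as a black bar and the median of all features (-0.12) dotted. Red cell membrane genes (median -4.59) and mitosis genes (-3.02) lie farthest to the left, and antiviral interferon effectors (2.47) to the right among lists whose members passed.

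Targets of p53 were higher as a rule, with a few exceptions. Of 15 targets that act on cell cycle arrest 10 rose, 3 fell and 2 did not pass (median 1.08), and of 14 that act on cell death 12 rose and 2 fell (median 1.18, or 1.08 without the corner). Cdkn1a, which encodes the p21 inhibitor of cyclin-dependent kinases, had 2555, 2793 and 3231 units on the 300 cGy arrays and 212, 180.3 and 175 units on the 0 cGy arrays. Every irradiated array was more than 10 times above every unirradiated one, and the change was 3.92 ± 0.10 (adjusted p = 1.32e-14). Its 3 probes all rose, by 2.05 to 3.92. Phlda3, a p53-induced brake on Akt signalling, had 30097, 27546 and 26511 units on the 300 cGy arrays and 4472, 4832 and 4281 units on the 0 cGy arrays, a change of 2.63 ± 0.09 (adjusted p = 4.58e-13). Puma, the BH3 protein encoded by Bbc3, is the main trigger of p53-dependent death in lymphocytes, and Bbc3 had 21809, 25619 and 22049 units on the 300 cGy arrays and 5584, 5203 and 4296 units on the 0 cGy arrays (change 2.21 ± 0.10, adjusted p = 7.48e-12). For both genes the groups were far apart and the arrays within a group close together. Bax, the pore former of the mitochondrial outer membrane, rose by 1.22 ± 0.08 and the death receptor gene Tnfrsf10b by 1.68 ± 0.10. Cyclin G1 (Ccng1, 1.67 ± 0.13), the RNA-binding protein gene Zmat3 (1.73 ± 0.11) and the spindle gene Psrc1 (2.06 ± 0.15) rose as well.

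The exceptions were not all equally firm. Gadd45a, a stress sensor that p53 induces in many cells, had 3276, 4206 and 2599 units on the 300 cGy arrays and 10130, 13821 and 10255 units on the 0 cGy arrays. All irradiated arrays were lower, and the change was -1.78 ± 0.16 (adjusted p = 3.4e-08). Gtse1, which restrains p53 in dividing cells and is itself a cell cycle gene, changed by -0.99 ± 0.18, and Pidd1, a death-domain scaffold, by -1.69 ± 0.12 (adjusted p = 2.58e-09). Siva1, a death-domain gene, fell on its brighter probe (-0.91 ± 0.12), but its other probe had 1.04 and did not pass, so that its direction is not settled. The p53 feedback genes were mixed, with 2 of 6 higher, 3 lower and a median of -0.28 (1 higher and 1 lower with spike-in scaling). Ppm1d, the phosphatase that switches p53 off, fell (-0.89 ± 0.10), and so did Trp53 itself (-0.64 ± 0.11, adjusted p = 0.000144), although Trp53 did not pass with spike-in scaling (adjusted p = 0.0792). Mdm2, the ligase that degrades p53, had 20662, 21942 and 19421 units at 300 cGy and 12748, 474 and 12810 units at 0 cGy, and the low unirradiated value lies in the dim corner. Its change was 2.28 ± 0.75 with all spots and 0.69 ± 0.10 without the corner (adjusted p = 2.03e-05). Its partner Mdm4, with no spot there, rose by 0.69 ± 0.11 but did not pass with spike-in scaling (0.60, adjusted p = 0.14).

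Among 12 p53 targets of metabolism and repair 7 rose, 1 fell and 4 did not pass (median 0.36, 4 risen with spike-in scaling). Gdf15, a secreted stress cytokine, had 1664, 1096 and 958 units on the 300 cGy arrays and 215, 176 and 194 units on the 0 cGy arrays, highest on replicate 1 but above every 0 cGy array on all 3 (2.63 ± 0.21, adjusted p = 1.1e-08). Sulf2, an extracellular sulfatase, rose by 1.44 ± 0.14. Polk, a translesion DNA polymerase, had 2.97 ± 1.0 with all spots and 0.85 ± 0.13 without the corner, where its value on replicate 2 at 0 cGy was 6.30 units against 545 and 491 units on the other unirradiated arrays. Ei24, a p53-induced autophagy gene, likewise had 1.59 ± 0.36 with all spots and 0.86 ± 0.14 without it. Of 16 members of the Bcl2 family, the regulators of mitochondrial death, 8 rose, 2 fell and 6 did not pass (median 0.26, 5 risen with spike-in scaling). The survival gene Bcl2l1, which encodes Bcl-xL and is prominent in red cell precursors, had the largest fall of these (-1.52 ± 0.17, adjusted p = 6.44e-07).

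**Figure D3:**
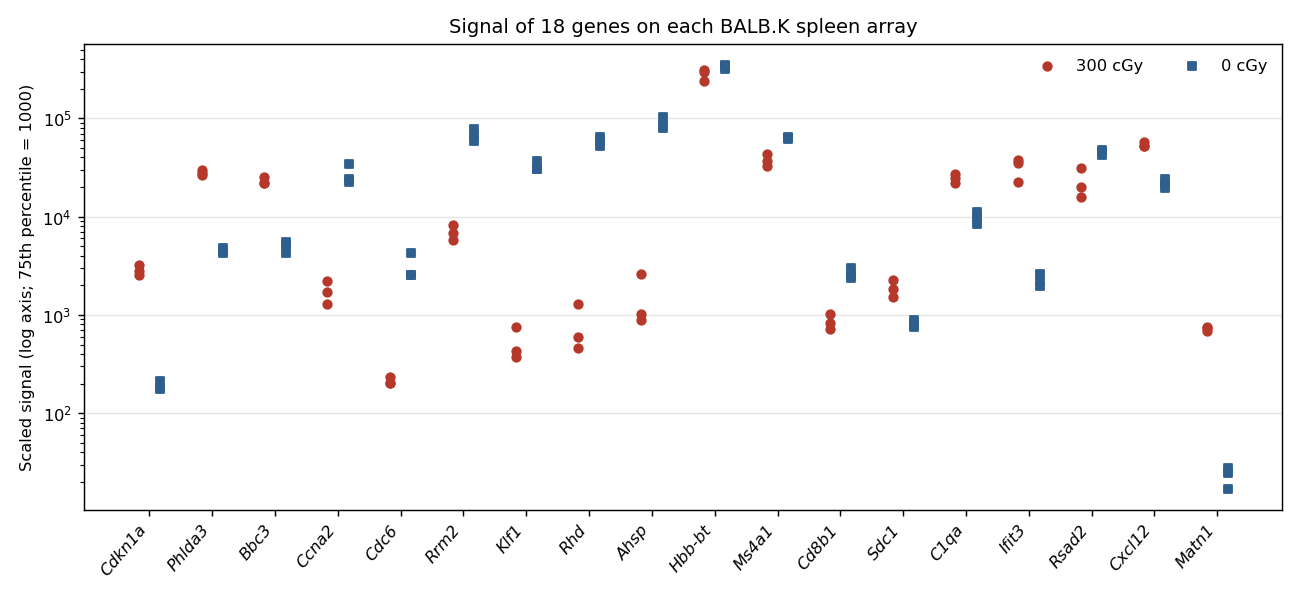
Scaled signal (vertical log axis) of 18 genes on each array, with the 300 cGy arrays as red circles left of the 0 cGy arrays as blue squares. The groups do not overlap for any gene shown, and Hbb-bt alone did not pass the test.

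Genes of the dividing cell fell with hardly an exception. All 19 tested genes of replication licensing, the loading of the replicative helicase at origins, fell (median -2.05), as did all 20 of DNA synthesis and nucleotide supply (median -1.93) and all 27 tested of mitosis (median -3.02). In each of these lists every member had all 300 cGy arrays below all 0 cGy arrays. Ccna2, which encodes cyclin A of S phase and early mitosis, had 1293, 2224 and 1709.8 units on the 300 cGy arrays and 22351, 34101 and 24400 units on the 0 cGy arrays (change -3.96 ± 0.19, adjusted p = 8.66e-12). Mki67, the standard marker of cycling cells, had 7671, 10462 and 8588 units on the 300 cGy arrays and 95082, 125050 and 93823 units on the 0 cGy arrays (-3.55 ± 0.16, adjusted p = 5.79e-12). In both genes replicate 2 was the highest array of its group. Cdc6, which loads the helicase at origins, had 203, 236 and 204 units on the 300 cGy arrays and 2565, 4282 and 2574 units on the 0 cGy arrays, a change of -3.83 ± 0.22, and Rrm2, the regulated subunit of ribonucleotide reductase, changed by -3.30 ± 0.16. The helicase subunit Mcm2 (-2.11 ± 0.11), the replication factor Mcm10 (-2.93 ± 0.12), topoisomerase Top2a (-2.84 ± 0.16), the mitotic cyclin Ccnb2 (-3.63 ± 0.15) and the spindle gene Nusap1 (-3.55 ± 0.18) fell too.

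Genes at the entry to S phase were split. Of 15 tested G1 cyclins, E2F factors and pocket proteins 11 fell, 3 rose and 1 did not pass (median -0.79). Cyclin E1 (Ccne1, -3.70 ± 0.13), the S phase activator E2f2 (-2.64 ± 0.17) and the repressor E2f7 (-3.44 ± 0.15, or -1.85 with the mean of its probes) fell. For E2f8, the second atypical repressor, the 0 cGy arrays read 8966, 403 and 8681 units, the middle value from the dim corner, and its change was -2.60 ± 0.71 with all spots and -4.08 ± 0.14 without the corner. The 3 that rose were the D cyclins Ccnd1 (1.0 ± 0.11) and Ccnd2 (0.79 ± 0.11, adjusted p = 0.0849 with spike-in scaling) and the quiescence pocket protein Rbl2 (0.92 ± 0.10). Of 7 inhibitors of the Ink4 and Kip families 4 rose and 3 fell (median 0.91). Cdkn2a, the Ink4a and Arf locus, had 6396, 5870.5 and 4354 units on the 300 cGy arrays and 1594, 1762 and 1839.6 units on the 0 cGy arrays (1.66 ± 0.13, adjusted p = 1e-08), and its neighbour Cdkn2b rose by 1.26 ± 0.11. Cdkn2c (-2.10 ± 0.14) and Cdkn2d (-1.75 ± 0.12), whose products inhibit the same kinases, fell with no overlap between groups.

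Promoter sequences put the lists beside the motifs known for them. RefSeq sequence of the 250 bases before the start (GRCm38.p6) was held for 23 of the 27 tested mitosis genes and 14 of the 19 licensing genes. The element called CHR, the letters TTTGAA on either strand, which recruits the DREAM repressor complex and its activating counterparts to late cell cycle genes, was found in 8 of 23 mitosis genes (34.8%) and in 18.3% of all 27025 promoters. The CCAAT box, the letters CCAAT on either strand, was found in 16 of 23 mitosis genes (69.6%), 10 of 14 licensing genes (71.4%) and 37.5% of all. An E2F core, TTTNNCGC on either strand, was found in 6 of 14 licensing genes (42.9%) and 4.94% of all. Other lists held the E2F core in 2 of 16 DNA synthesis genes (12.5%), 1 of 23 mitosis genes (4.35%) and 8 of 59 cytosolic ribosomal protein genes (13.6%). CHR was found in 4 of 14 licensing genes (28.6%) and 2 of 16 DNA synthesis genes (12.5%). A match of letters is a description and not a measured binding site. Cdc20, an activator of the anaphase-promoting complex, changed by -2.28 ± 0.13, the helicase subunit Mcm6 by -2.20 ± 0.13 and the origin recognition subunit Orc1 by -3.33 ± 0.20, and their sequences (Cdc20 and Mcm6 chosen after their values were seen) are shown because each holds the motif of its list close to the start. They lie on the strand of the gene, 5′ to 3′, at chr4:118437344-118437443 (minus strand, CHR and CCAAT in capitals), chr1:128359716-128359815 (minus strand, E2F core in capitals, where a pair of matches overlap at the first base) and chr4:108579354-108579453 (plus strand, E2F core in capitals, read from the other strand).
Cdc20: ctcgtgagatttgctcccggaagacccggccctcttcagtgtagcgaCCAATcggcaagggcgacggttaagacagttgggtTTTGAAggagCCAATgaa
Mcm6: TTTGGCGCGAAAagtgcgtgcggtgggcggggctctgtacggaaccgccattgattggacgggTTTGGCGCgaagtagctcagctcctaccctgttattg
Orc1: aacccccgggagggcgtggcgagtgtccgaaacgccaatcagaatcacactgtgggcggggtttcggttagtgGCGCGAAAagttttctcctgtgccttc

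Repair genes divided by pathway. Of 22 genes of homologous recombination and the Fanconi pathway, which mend breaks and crosslinks from a sister chromatid during replication, 21 fell and 1 did not pass (median -1.76). Brca1 had 14.1, 16.9 and 14.6 units on the 300 cGy arrays and 115, 118 and 131 units on the 0 cGy arrays, close to background when irradiated (-3.0 ± 0.22, adjusted p = 4.06e-09, or -1.29 with normexp background correction). All irradiated arrays were lower than all unirradiated ones. Of 16 genes of end joining, which can act in all cell cycle phases, and of damage sensing, 8 fell, 1 rose and 7 did not pass (median -0.34, 9 fallen without the corner and 5 with spike-in scaling). The histone variant H2ax (-2.22 ± 0.11) and the checkpoint kinase Chek2 (-1.20 ± 0.11) fell. Lig4, the ligase that seals joined ends, was the single riser (0.41 ± 0.12, adjusted p = 0.0104), and it did not pass with slide as a block (0.17, adjusted p = 0.429). Xrcc6, the Ku70 subunit that binds broken ends, also named after its values were seen, did not pass with all spots (0.63 ± 0.74) and fell without the corner (-0.93 ± 0.13, adjusted p = 9.89e-06).

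Red cell formation had the deepest falls among the lists. Of 18 genes of the red cell membrane 16 fell and 2 did not pass, with a median of -4.59, or -4.61, -3.95 and -5.11 on the 3 irradiated arrays taken singly. Rhd, the Rhesus blood group protein, had 599, 1304 and 457 units on the 300 cGy arrays and 58853, 64677 and 51959 units on the 0 cGy arrays (-6.36 ± 0.31, adjusted p = 1.3e-11). Btnl10, a butyrophilin-like gene, had 60.1, 156 and 48.1 units on the 300 cGy arrays and 9404, 10448 and 8703 units on the 0 cGy arrays (-6.95 ± 0.35), and the Kell blood group gene Kel had 369, 805 and 318 units on the 300 cGy arrays and 22689, 26741 and 17089 units on the 0 cGy arrays (-5.58 ± 0.43). In all 3 genes replicate 2 was the highest irradiated array, and even there the signal was more than 10 times below the lowest unirradiated one. The adducin subunit of the membrane skeleton Add2 (-5.91 ± 0.41), the Scianna blood group gene Ermap (-5.30 ± 0.23) and the erythroblast adhesion gene Icam4 (-5.57 ± 0.18) fell as well. Outside the lists, Apol8, an apolipoprotein L gene with its probe in the corner, fell by 6.98 ± 0.33 with all spots and had -7.0 without the corner. The manganese exporter gene Slc30a10 was above background on all 0 cGy arrays and on none at 300 cGy, at least 18.5-fold lower (adjusted p = 8.67e-14).

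The regulators above these genes fell too, with 12 of 13 erythroid transcription factors and receptors lower and 1 not passing (median -2.43). Klf1, the factor that switches on adult red cell genes, had 430.1, 756 and 374 units on the 300 cGy arrays and 30196, 37146 and 30416 units on the 0 cGy arrays (-6.03 ± 0.29, adjusted p = 1.16e-11). Gata1 (-3.25 ± 0.26), the central factor of the lineage, and its partner Tal1 (-3.10 ± 0.13) fell by less. The erythropoietin receptor gene Epor had 5499.9, 4896 and 4242 units on the 300 cGy arrays and 25451, 29484 and 20587 units on the 0 cGy arrays (-2.36 ± 0.15), and the transferrin receptor gene Tfrc, by which precursors take up iron, 538, 839 and 834 units on the 300 cGy arrays and 10217, 12977 and 10160 units on the 0 cGy arrays (-3.94 ± 0.18, a corner gene with the same value without it). Lmo2, the bridging member of the Gata1 complex, named after its values were seen, did not pass with all spots (0.35 ± 0.83) but has its probe in the corner, without which it fell (-1.40 ± 0.12, adjusted p = 3.06e-08) and made 13 of 13. Of 12 genes of heme synthesis 11 fell (median -2.51), among them the mitochondrial transporter Abcb10 (-3.52 ± 0.11) and the mitochondrial iron importer Slc25a37 (-2.66 ± 0.20). The single riser was Alas1, the form of the first enzyme used outside red cells (0.64 ± 0.10), whose other probe had -0.38 and did not pass, nor did the gene with spike-in scaling (adjusted p = 0.114).

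Most globin messages did not pass the test. Of 8 tested globins and globin partners 2 fell and 6 did not pass (median -0.38). The adult gene Hbb-bt had 296870, 313410 and 241090 units on the 300 cGy arrays and 344200, 348100 and 320500 units on the 0 cGy arrays (-0.26 ± 0.32, adjusted p = 0.536). These are among the brightest signals of the arrays, and the globin genes are near copies of each other, so that probes may read several at once. Ahsp, the chaperone of free alpha-globin, behaved like the membrane genes, with 888, 2599.5 and 1023 units on the 300 cGy arrays and 78947, 103670 and 84855 units on the 0 cGy arrays (-6.06 ± 0.37, adjusted p = 2.43e-10). Every 300 cGy array lay below every 0 cGy array for all 8 tested members, as it did for 26.4% of all features, but by less than a factor of 2 for Hbb-bt.

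GATA factors bind the core AGATAA. On either strand it was found in 4 of 13 red cell membrane genes with a RefSeq promoter (30.8%), 3 of 11 erythroid factors and receptors (27.3%), 1 of 9 heme synthesis genes (11.1%) and 11.4% of all promoters. The KLF1 box CCACACCC was found in 0 of 13 and in 3.68% of all. Btnl10, which fell furthest of the membrane list (-6.95), holds the core but is not printed. The 100 bases before the start of Rhd, at chr4:134864436-134864535 (plus strand), and of Kel, at chr6:41704326-41704425 (minus strand), are printed as examples from this list. Both genes had deep falls and hold the core, which is in capitals (GRCm38.p6, RefSeq).
Rhd: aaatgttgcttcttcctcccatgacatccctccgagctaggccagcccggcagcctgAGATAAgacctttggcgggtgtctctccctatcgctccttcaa
Kel: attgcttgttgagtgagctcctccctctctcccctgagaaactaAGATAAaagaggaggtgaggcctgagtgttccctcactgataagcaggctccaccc

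Genes for the disposal of heme and iron, by contrast, were mostly higher, with 8 of 13 risen, 1 fallen and 4 not passing (median 0.86). Spic, the transcription factor of red pulp macrophages that heme induces, had 73172, 84567 and 69112 units on the 300 cGy arrays and 31194, 38186 and 43702 units on the 0 cGy arrays (1.01 ± 0.13, adjusted p = 4.69e-06). Heme oxygenase 1 (Hmox1, 1.27 ± 0.19), which opens the heme ring, and ferroportin (Slc40a1, 1.05 ± 0.11), which exports the iron, rose with no overlap between groups. Blvrb, a biliverdin reductase that is abundant in red cells, was the 1 member that fell (-1.61 ± 0.14).

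Lymphocyte genes fell moderately and unevenly. Of 16 B cell surface receptor genes 14 fell, 1 rose and 1 did not pass (median -0.81), and of 12 B cell transcription factors 7 fell, 1 rose and 4 did not pass (median -0.37, 4 fallen with spike-in scaling). Ms4a1, which encodes CD20, had 32757, 43508 and 36533 units on the 300 cGy arrays and 61652, 64212 and 62928 units on the 0 cGy arrays (-0.75 ± 0.15, adjusted p = 0.00042, or 0.069 with spike-in scaling). It was lower on every irradiated array than on any unirradiated one. Some receptor genes fell further than Ms4a1, among them the pre-B receptor gene Vpreb3 at -1.37 ± 0.12 and Fcer2a, the CD23 of follicular B cells, at -1.28 ± 0.18. Cd24a, which immature B cells share with red cell precursors, fell furthest (-3.23 ± 0.10). Among factors, Bach2 (-1.34 ± 0.13), Pax5 (-1.24 ± 0.17) and Ebf1 (-0.95 ± 0.10), which hold B cell identity, fell. Irf8 was near level at 0.21, an adjusted p of 0.048 that did not hold with slide as a block (0.12, adjusted p = 0.433), and Cd93, also made by endothelium, rose by 0.47 ± 0.08 (adjusted p = 0.277 with spike-in scaling).

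T cell genes fell in part, among them those of CD8 and naive cells. Of 17 genes of the T cell receptor complex and its signalling 10 fell and 7 did not pass (median -0.37, 4 fallen with spike-in scaling), and of 10 naive T cell genes 8 fell, 1 rose and 1 did not pass (median -0.71, 5 fallen with spike-in scaling). Cd8b1, the CD8 beta chain, had 713, 1026 and 819 units on the 300 cGy arrays and 2979.9, 2544 and 2393 units on the 0 cGy arrays (-1.64 ± 0.13, adjusted p = 8.59e-09), and Cd8a changed by -0.75 ± 0.08. Cd4 had 4714, 5149 and 5169 units on the 300 cGy arrays and 4643, 4993 and 4282 units on the 0 cGy arrays, which overlap, and did not pass (0.11 ± 0.10, adjusted p = 0.379). Cd3e, part of the receptor on every T cell, fell by 0.37 ± 0.11, but its adjusted p was 0.0586 with slide as a block and 0.233 with median scaling. Among naive cell genes Dapl1 fell by 1.55 ± 0.13 and S1pr1, the receptor for exit from lymphoid organs, by 1.14 ± 0.18. The median of the receptor list was -0.56, -0.24 and -0.36 on the irradiated arrays and 0.14, -0.10 and -0.08 on the unirradiated ones, and the list had a median of -0.22 with 5 members fallen without replicate 1 of both groups. The naive T cell list likewise had 5 members fallen without it.

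Regulatory T cell and plasma cell genes went the other way. Of 15 regulatory T cell genes 12 rose and 3 did not pass (median 0.67, 4 risen with spike-in scaling). The interleukin 2 receptor gene Il2ra had 1203, 1307 and 1296 units on the 300 cGy arrays and 643, 696 and 708 units on the 0 cGy arrays (0.90 ± 0.10, adjusted p = 9.18e-07) and the costimulatory receptor Tnfrsf4 rose by 1.0 ± 0.13. Foxp3, the defining factor, rose by 0.32 ± 0.10 (adjusted p = 0.0107) and did not pass with slide as a block (0.22, adjusted p = 0.128). Of 15 plasma cell and secretion genes 13 rose and 2 did not pass (median 0.76, 5 risen with spike-in scaling). Sdc1, the syndecan on plasma cells, had 1857, 1529.5 and 2288 units on the 300 cGy arrays and 760.2, 774 and 895 units on the 0 cGy arrays (1.21 ± 0.12, adjusted p = 1.38e-07). The survival receptor Tnfrsf17 (1.08 ± 0.12) and the protein-folding enzyme Pdia4 (1.14 ± 0.12) rose as well. Of 15 natural killer and cytotoxic genes 6 rose, 2 fell and 7 missed the threshold (median 0.14, 2 risen and 0 fallen with spike-in scaling). The natural killer receptor gene Ncr1 did not pass (0.14 ± 0.17), the activating receptor Klrk1 rose (1.17 ± 0.13) and the granule protease Gzmb had 1035, 1804 and 1501 units on the 300 cGy arrays and 563, 739 and 622 units on the 0 cGy arrays, a change of 1.15 ± 0.17 that was 0.70 with slide as a block. Eomes, a factor of natural killer and memory T cells, had -0.58 ± 0.13 and an adjusted p of 0.0551 with that block.

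The listed macrophage genes rose without exception. All 20 surface and complement genes rose, and so did all 19 lysosome genes (medians 1.32 and 1.15, the second 1.01 without the corner), and every 300 cGy array lay above every 0 cGy array for each of these genes. C1qa, a chain of complement C1q that binds dying cells, had 24482, 22094 and 27373 units on the 300 cGy arrays and 8508, 11130 and 9671 units on the 0 cGy arrays (1.34 ± 0.13, adjusted p = 1.87e-07). Fcgr1, the high-affinity antibody receptor, had 2956, 3619.9 and 3093 units on the 300 cGy arrays and 587, 622 and 695 units on the 0 cGy arrays (2.34 ± 0.12, adjusted p = 2.02e-11), and F4/80 (Adgre1) rose by 0.96 ± 0.10. The spread between irradiated arrays was small, with list medians of 1.28, 1.30 and 1.31. Cd5l, an apoptosis inhibitor secreted by tissue macrophages (1.91 ± 0.18), the scavenger receptor Msr1 (1.85 ± 0.17) and the endosomal marker Cd68 (1.27 ± 0.20) rose too. Gpnmb, a lysosomal glycoprotein of macrophages loaded with cell debris, had 129.8, 115 and 148 units on the 300 cGy arrays and 19.3, 5.12 and 5.50 units on the 0 cGy arrays and was above background on 1 of the 3 unirradiated arrays (4.0 ± 0.34, or 1.34 with normexp background correction). Atp6v0d2, a proton pump subunit, behaved alike (2.75 ± 0.23, or 0.85 with normexp). The growth factor precursor Grn rose by 1.65 ± 0.10. For the cathepsins with a probe in the corner, Ctss had 2.12 ± 0.74 with all spots and 0.57 ± 0.11 without, and Ctsl 1.98 ± 0.49 with and 0.98 ± 0.16 without.

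Other myeloid lists moved less. Of 16 tested neutrophil and granule genes 6 rose and 10 did not pass (median 0.42, or 0.12 and 3 risen with slide as a block, and 2 risen with spike-in scaling). S100a8, the dominant neutrophil message, had 45704, 78072 and 49936 units on the 300 cGy arrays and 36144, 48336 and 42063 units on the 0 cGy arrays, which overlap (0.43 ± 0.25, adjusted p = 0.173), while the collagenase Mmp8 rose by 1.31 ± 0.24 and the chemokine receptor Cxcr2, a corner gene, by 0.75 ± 0.12 (0.76 ± 0.14 without the corner, and an adjusted p of 0.058 with spike-in scaling). Of 13 dendritic cell genes 4 rose and 9 did not pass (median 0.13, 1 risen with spike-in scaling), with Clec10a, a lectin of dendritic cells and macrophages, at 0.77 ± 0.13 (adjusted p = 0.0662 with spike-in scaling). Of 15 megakaryocyte and platelet genes 9 rose and 6 did not pass (median 0.70, 3 risen with spike-in scaling). The platelet receptor gene Clec1b rose by 0.81 ± 0.12 and Pf4, platelet factor 4, had 63002, 53794 and 42064 units on the 300 cGy arrays and 44379, 37718 and 36231 units on the 0 cGy arrays (0.41 ± 0.17, adjusted p = 0.0521). The 2 members with the largest values, Gp6 (2.32 ± 0.78) and Gp5 (2.23 ± 0.72), are corner genes, with 0.73 ± 0.26 and 0.80 ± 0.31 without it. Among 9 tested mast cell and basophil genes 2 rose, 3 fell and 4 did not pass. Mcpt8, the basophil protease, had 34.1, 41.5 and 25.7 units on the 300 cGy arrays and 106, 89.4 and 94.3 units on the 0 cGy arrays, lower on all irradiated arrays (-1.54 ± 0.39, adjusted p = 0.00356, or 0.0518 with slide as a block, and a change of -0.79 with normexp), and Hdc, which makes histamine, rose by 1.31 ± 0.20.

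Interferon-induced genes rose in a body. Of 20 antiviral effectors 19 rose and 1 fell (median 2.47). Their share of all signal was 0.213% to 0.335% on the 300 cGy arrays and 0.0752% to 0.0816% on the 0 cGy arrays. Ifit3, which curbs translation of viral RNA together with its relatives, had 22648, 37841 and 34926 units on the 300 cGy arrays and 1984, 2218 and 2632 units on the 0 cGy arrays (3.78 ± 0.19, adjusted p = 1.63e-11). Its near copy Ifit3b had 3.81 ± 0.18, and the probes may not separate them. The RNA sensor Oas2 had 15919, 32814 and 29408 units on the 300 cGy arrays and 3136, 2332 and 2579 units on the 0 cGy arrays (3.22 ± 0.21, adjusted p = 6.07e-10), the GTPase Mx1 rose by 3.12 ± 0.23, and Ifi44 by 3.14 ± 0.15. Replicate 1 was the lowest irradiated array for Ifit3, Oas2, Mx1 and Ifi44. The 1 member that fell was Rsad2, which encodes viperin. It had 15738, 31160 and 20262 units on the 300 cGy arrays and 45129, 47957 and 42769 units on the 0 cGy arrays (-1.07 ± 0.21, adjusted p = 0.000348), bright on all arrays and lower after irradiation.

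Regulators and sensors of the pathway rose in part, with 12 of 20 higher, 2 lower and 6 not passing (median 0.54). Irf7, the amplifier of type I interferon, rose by 1.68 ± 0.24, and the cytosolic RNA sensor Dhx58 by 2.09 ± 0.12. The ligand gene Ifnb1 was not well above background on any of the 6 arrays. The interferon-stimulated response element was searched on either strand as GAAA, any 2 bases and GAAA. It was found in 7 of 14 effectors with a RefSeq promoter (50%), 6 of 59 ribosomal protein genes (10.2%) and 3.46% of all promoters. Those of 3 genes are printed, each before the gene's start in GRCm38.p6 with the element in capitals: Ifit3 at chr19:34583373-34583472 (plus strand, a pair of elements read from the other strand), Isg15, an ubiquitin-like modifier, chosen after its values were seen, that changed by 1.18 ± 0.18, at chr4:156200819-156200918 (minus strand, 3 overlapping elements), and Rsad2 at chr12:26456473-26456572 (minus strand). Rsad2, the effector that fell, holds the element as Ifit3 and Isg15 do, which rose.
Ifit3: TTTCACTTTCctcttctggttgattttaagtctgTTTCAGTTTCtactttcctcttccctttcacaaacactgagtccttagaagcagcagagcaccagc
Isg15: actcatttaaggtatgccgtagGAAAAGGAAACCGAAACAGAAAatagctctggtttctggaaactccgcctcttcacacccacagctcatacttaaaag
Rsad2: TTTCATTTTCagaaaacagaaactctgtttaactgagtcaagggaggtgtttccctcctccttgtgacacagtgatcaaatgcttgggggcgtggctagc

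Antigen presentation split by class. Of 13 genes of MHC class I loading 12 rose and 1 did not pass (median 0.48, 6 risen with slide as a block and 2 with spike-in scaling), led by Nlrc5, the class I transactivator (1.0 ± 0.09, adjusted p = 6.01e-08). Of 11 genes of class II presentation 7 fell, 1 rose and 3 did not pass (median -0.49, 4 fallen with slide as a block and 3 with spike-in scaling). H2-Ob, a class II chaperone of B cells, had 12401, 14085 and 13925 units on the 300 cGy arrays and 31721, 27979 and 28909 units on the 0 cGy arrays (-1.13 ± 0.17, adjusted p = 2.81e-05). The class II transactivator Ciita had 393, 287 and 185 units on the 300 cGy arrays and 523, 985 and 396 units on the 0 cGy arrays, lower on all irradiated arrays (-1.10 ± 0.35, adjusted p = 0.0157) but at -0.58 with slide as a block (adjusted p = 0.371). The 1 member that rose was Ctss, the corner gene given above. Inflammatory chemokine genes numbered 18, of which 11 rose, 1 fell and 6 missed the threshold (median 0.92, 7 risen with spike-in scaling). Ccl12, a monocyte attractant, had 178, 275 and 274 units on the 300 cGy arrays and 30.3, 13.5 and 30.4 units on the 0 cGy arrays (3.36 ± 0.34, or 2.97 ± 0.33 without the corner and 1.69 with normexp), and Cxcl10, which interferon induces, had 11573, 18338 and 16880 units on the 300 cGy arrays and 4755, 4084 and 4276 units on the 0 cGy arrays (1.81 ± 0.17, adjusted p = 6.81e-08). Ccl2 rose by 1.03 ± 0.17. Of 13 inflammatory cytokine genes 9 rose and 4 did not pass (median 0.84, 5 risen with spike-in scaling). Il33, an alarm cytokine of stromal cells, had 5362, 5814 and 5529.9 units on the 300 cGy arrays and 1996, 2108 and 1939 units on the 0 cGy arrays (1.47 ± 0.10, adjusted p = 9.45e-10), and Il6 had 43.5, 65.1 and 57.3 units on the 300 cGy arrays and 42.0, 48.1 and 52.1 units on the 0 cGy arrays, which overlap (0.21 ± 0.19, adjusted p = 0.4). Saa3, an acute phase protein and a corner gene, had 68.1, 219 and 276 units on the 300 cGy arrays and 11.4, 7.75 and 34.7 units on the 0 cGy arrays, uneven within both groups. Its change was 3.47 ± 0.71 with all spots, 3.01 ± 0.77 without the corner, 2.23 with slide as a block (adjusted p = 0.0788) and 1.43 with normexp.

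Genes of stroma and vessels rose. Of 17 tested collagen and matrix genes 14 rose, 1 fell and 2 missed the threshold (median 1.07), of 12 metalloproteinases and inhibitors 11 rose and 1 did not pass (median 1.20, or 1.02 without the corner), and of 14 endothelial genes 13 rose and 1 did not pass (median 0.82, 8 risen with spike-in scaling). Matn1, a matrilin known from cartilage, had 686, 730.2 and 752 units on the 300 cGy arrays and 27.6, 17.1 and 24.8 units on the 0 cGy arrays (4.99 ± 0.17, adjusted p = 2.82e-13, or 4.79 ± 0.16 without the corner and 3.08 with normexp). The collagenase Mmp13 had 324, 703 and 499 units on the 300 cGy arrays and 32.4, 40.3 and 44.9 units on the 0 cGy arrays (3.64 ± 0.20, or 2.33 with normexp), and stromelysin Mmp3 3.06 ± 0.39 with all spots and 2.32 ± 0.19 without the corner. The gelatinase Mmp2 (2.40 ± 0.20) and the small proteoglycans Lum (1.95 ± 0.21) and Dcn (1.51 ± 0.13) rose, as did collagen I (Col1a1, 1.26 ± 0.14), while Col5a1 fell (-0.53 ± 0.13, adjusted p = 0.0884 with spike-in scaling). Timp2, an inhibitor of these enzymes, had 2.31 ± 0.80 with all spots and 0.66 ± 0.22 without the corner. Vessel genes followed, with VE-cadherin (Cdh5) at 1.09 ± 0.12 and the sinusoid marker Lyve1 at 1.74 ± 0.35 (1.02 with normexp).

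Of 15 tested growth factor and niche genes 12 rose, 1 fell and 2 missed the threshold (median 1.03). Cxcl12, which holds blood stem cells in their niche, had 57035, 52084 and 52107 units on the 300 cGy arrays and 24234, 19545 and 21285 units on the 0 cGy arrays (1.31 ± 0.11, adjusted p = 2.01e-08). Ccl19, by which stromal cells draw T cells into the white pulp, had 23745, 26855 and 29319 units on the 300 cGy arrays and 6932, 8256 and 7443 units on the 0 cGy arrays (1.82 ± 0.10, adjusted p = 7.97e-11). Il15, the survival factor of natural killer and memory T cells, rose by 1.66 ± 0.15. Kitl, the ligand of the stem cell receptor Kit, had 399.8, 330.1 and 189 units on the 300 cGy arrays and 209.7, 183 and 171 units on the 0 cGy arrays, which overlap, with 0.64 ± 0.20 and an adjusted p of 0.0119. Without replicate 1 at 300 cGy it had 0.42 (adjusted p = 0.0886), and it also did not pass without replicate 2 at 300 cGy, without replicate 1 of both groups, with the 6 arrays alone or with spike-in scaling. With slide as a block it had 1.09 (adjusted p = 0.00134).

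Housekeeping and stress genes were less uniform. Of 79 tested cytosolic ribosomal protein genes 58 fell, 1 rose and 20 did not pass, with a median of -0.31, 36 fallen with slide as a block and 0 fallen or risen with spike-in scaling (median -0.13 with median scaling, under which the median of all features was 0.06). The single riser, Rps27l, is a p53 target and had 0.61 ± 0.11 (adjusted p = 0.165 with spike-in scaling). Of 80 tested genes of the mitochondrial respiratory chain 30 fell, 4 rose and 46 did not pass (median -0.20, 17 fallen with slide as a block, and 5 fallen and 2 risen with spike-in scaling). Of 15 oxidative stress genes 7 rose, 3 fell and 5 missed the threshold (median 0.11, 3 risen with spike-in scaling). The quinone reductase gene Nqo1 had 378, 386 and 359.8 units on the 300 cGy arrays and 1198, 1631 and 1482 units on the 0 cGy arrays (-1.93 ± 0.11, adjusted p = 7.9e-11), glutathione synthesis gene Gclc changed by -1.41 ± 0.11, and the peroxidase Gpx1, abundant in red cells, by -1.29 ± 0.11. The cystine importer Slc7a11 (1.76 ± 0.22) and the secreted peroxidase Gpx3 (1.52 ± 0.23) rose. Gsr, glutathione reductase, had 1.71 ± 0.62 with all spots and did not pass without the corner (0.42 ± 0.18, adjusted p = 0.0586). Of 13 immediate early genes 2 rose, 1 fell and 10 missed the threshold (median 0.21). Atf3 had 1.18 ± 0.28 (adjusted p = 0.00194, or 0.0512 with slide as a block) and Myc -0.91 ± 0.14. All 17 exocrine pancreas genes failed to pass (median 2.93), and the groups overlapped for each. With slide as a block 6 of them rose and the median was 5.85. Of 8 tested adipocyte genes 6 rose (median 1.81, 1 risen with slide as a block and 2 with spike-in scaling), among them Adipoq (1.81 ± 0.67, adjusted p = 0.0328, or 0.194 with slide as a block), a hormone of fat cells. The part of these genes in other results was not tested.

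The next dose in the same strain, 400 cGy, was set directly against 300 cGy. Of 29524 features 1405 were called (4.76%), 933 higher (3.16%) and 472 lower (1.60%), with a median of 0.06 for all features. Lymphocyte genes were lower at 400 than at 300 cGy: 12 of 16 B cell surface receptors, 6 of 12 B cell factors, 8 of 17 T cell receptor genes, 5 of 10 naive T cell genes, 4 of 11 class II genes and 4 of 15 natural killer genes were called lower, and none of these lists had a member called higher. The median of B cell surface receptors was -1.57, -1.30 and -1.36 on the 400 cGy arrays and -0.91, -0.79 and -0.70 on the 300 cGy arrays, relative to the mean at 0 cGy. The log2 difference of 400 from 300 cGy was -0.91 ± 0.10 for Ebf1 (adjusted p = 0.000195) and -1.11 ± 0.13 for Dapl1 (adjusted p = 0.000414), both of them already lower at 300 than at 0 cGy. The 2 comparisons share the 300 cGy arrays. Of the p53 arrest and death targets 0 of 15 and 0 of 14 were called in either direction, with Cdkn1a at 3356 units on average at 400 cGy and 2846 units at 300 cGy, and 0 of 20 antiviral effectors were called. Of cell cycle genes 0 of 27 in mitosis, 2 of 19 in licensing and 3 of 20 in DNA synthesis were called lower and none higher. Their medians, -0.29 for mitosis, -0.28 for licensing and -0.28 for DNA synthesis, were close to that of the B cell factors (-0.28). Mmp13 (-1.01 ± 0.20, adjusted p = 0.014) and Matn4, another matrilin (-1.64 ± 0.32, adjusted p = 0.0116), were higher at 300 cGy than at either 0 or 400 cGy, although for Matn4 the change from 0 cGy did not pass with slide as a block (1.01, adjusted p = 0.0841). Car1, the carbonic anhydrase of red cell precursors, and Klf1 were lower at 400 than at 300 cGy, with differences of -1.19 ± 0.24 for Car1 and -1.09 ± 0.29 for Klf1. These calls rest on few arrays: without replicate 2 or replicate 3 at 300 cGy 286 and 254 features were called, and without replicate 1 2184. With spike-in scaling 283 were called, 1 of them lower, and with median scaling 5162, 599 of them higher and 4563 lower, so that the split of calls by direction depends on the scaling. At most 1 of the lower calls given above can thus hold with spike-in scaling. Of 29 named genes called in this contrast, 26 lost the call with spike-in scaling, 19 without replicate 2 at 300 cGy and 16 without replicate 3. With the deposited matrix 13 lost it, with the exocrine covariate 12 and with slide as a block 2.

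**Figure D4:**
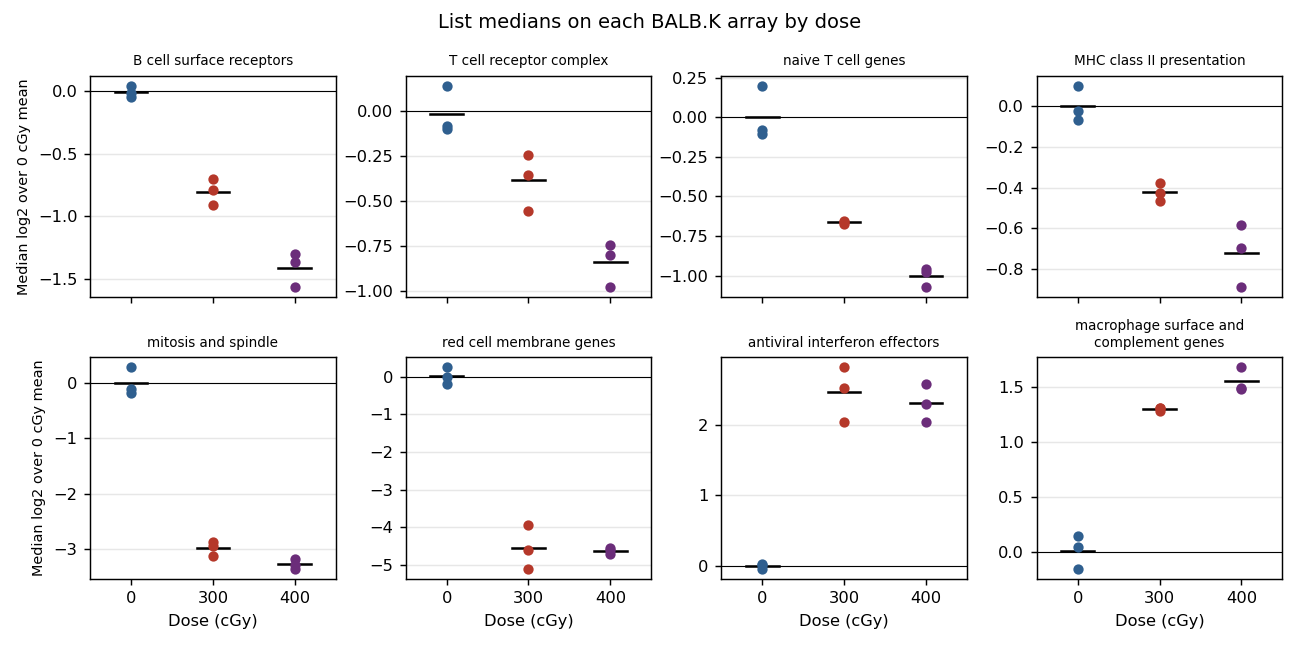
Median log2 level of 8 gene lists on each BALB.K array over the mean at 0 cGy (vertical axis, scaled per panel), at 0, 300 and 400 cGy (horizontal axis, doses spaced evenly), with the group mean as a bar. In the B cell, T cell, class II and mitosis panels every 400 cGy array lies below every 300 cGy array. Every macrophage median is higher at 400 than at 300 cGy, whereas in the red cell membrane and antiviral panels the arrays of both doses overlap.

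At the same dose in B10.BR the response differed from that of BALB.K for 3217 features (10.9%), by a test of the difference itself, 1436 with a higher change in BALB.K (4.86%) and 1781 with a lower one (6.03%). Cell cycle lists differed most: the difference was negative for 26 of 27 mitosis genes, 17 of 19 licensing genes, 18 of 20 DNA synthesis genes and 13 of 22 recombination genes, and positive for 0 in each. Their medians were -3.02, -2.05, -1.93 and -1.76 in BALB.K and -1.35, -0.88, -0.82 and -0.81 in B10.BR. Mki67 averaged 8833 units at 300 cGy and 103710 units at 0 cGy in BALB.K, and 9870.5 units at 300 cGy and 43699 units at 0 cGy in B10.BR, values that lay closer at 300 cGy than at 0 cGy (difference of the responses -1.41 ± 0.23, adjusted p = 0.000653). Erythroid factors and heme genes fell further in BALB.K for 7 of 13 and 7 of 12 genes, with the receptor gene Kit (0.45), named after its values were seen, and 0 heme genes the other way, while the red cell membrane list had a median of -4.59 in BALB.K and -4.85 in B10.BR, with 4 of 18 differences negative and 1 positive. Rhd was the positive one, with 1.97, a value that was -0.25 with normexp background correction. Where T cell and plasma cell genes and B cell factors differed, it was the other way, with a higher change in BALB.K for 5 of 17 T cell receptor genes, 3 of 10 naive T cell genes, 4 of 12 B cell factors and 7 of 15 plasma cell genes and a lower one for 0 of each. B cell surface receptors had 1 positive and 1 negative difference of 16 (median 0.05), with 0.83 for the complement receptor Cr2, named after its values were seen, and -1.07 for Cd24a. Lef1, a factor of naive T cells, had -0.71 in BALB.K and -1.98 in B10.BR (difference 1.27 ± 0.21, adjusted p = 0.000823). The p53 arrest targets had 3 positive and 3 negative differences of 15, and Cdkn1a 0.10 ± 0.14 (adjusted p = 0.7), though with the mean of its 3 probes the difference was -1.24. Macrophage genes had 1 difference in 20, and their medians were 1.32 in BALB.K and 1.25 in B10.BR. Slide as a block left 715 features with a higher change in BALB.K, against 1436 without it. With median scaling 4112 were higher and 1093 lower, and with spike-in scaling 23 higher and 1174 lower, and the positive differences of Irf8, Cd3e and Foxp3 changed sign there.

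**Figure D5:**
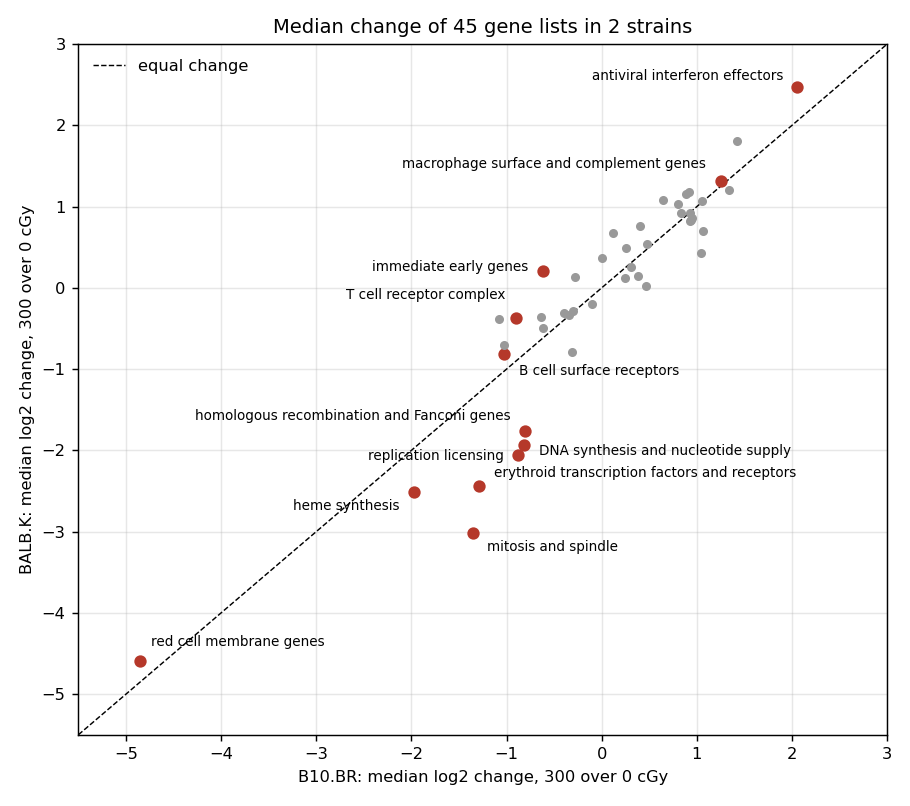
Median log2 change from 0 to 300 cGy of 45 gene lists in BALB.K (vertical axis) against B10.BR (horizontal axis), 1 point a list, with a dashed line of equal change. Mitosis, licensing, DNA synthesis, recombination and erythroid factor lists lie well below the line, while red cell membrane (-4.59 against -4.85), macrophage (1.32 against 1.25) and antiviral lists (2.47 against 2.06) lie near it.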

How the data were processed

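Spleen RNA was hybridised to one-colour Agilent arrays, 3 for each of 8 groups of strain and dose, each a pool of 3 mice per the labels. The deposited files hold spot intensity as Agilent Feature Extraction 10.5.1.1 gave it, background-subtracted and multiplicatively detrended per the file headers, with coordinates on mm9. A deposited matrix of the authors' log2 values, centred per probe and with its between-array normalization not given in the sources used here, was used as an alternative only.

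From these intensities log2 of the processed signal minus each array's 75th percentile was computed. Spots marked as outliers by the software (72 to 218 an array) were left out and replicate spots averaged. Of 55681 probes 42316 were well above background on all 3 arrays of at least 1 group and were kept. Each gene took its brightest probe, which gave 29524 features. RefSeq accessions named 26519 probes, symbols 3790 and synonyms 716, and 24656 kept the file's name. limma 3.58.1 in R 4.3.3 fitted all 24 arrays (lmFit, eBayes), and p-values were adjusted by Benjamini-Hochberg over all features, with a threshold of 0.05. In the fit tested on simulated data, 69 of 100 features changed by a log2 value of 1 and 87 of 100 changed by 2 were recovered, with 9 false calls, in the comparison of 300 with 0 cGy over 29509 features. The simulation changed far fewer features than were called in the data, and its noise was independent, with no slide or corner effect. Its recovery and false calls therefore do not measure those of the real comparison. With 3 arrays against 3 an exact permutation test cannot give a p below 0.1. A bound ("at least N-fold") sets the bright group's mean against the lowest signal well above background, or the dim probe's own where that is higher. No spot was saturated. The number of arrays limits the precision.

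The 47 gene lists (819 genes, 800 of them tested) and the members were chosen with earlier results of these data known. Genes named in the text are the called ones with the largest changes in the comparison, in each list and in the contrasts of 400 with 300 cGy and of the strains, plus a fixed set of marker genes. Exceptions are named as such. The alternatives were other scalings, normexp background, filters, a mean over probes, the 6 arrays alone, slide or replicate as a block, the deposited matrix, an exocrine covariate, and leaving out arrays. Leaving out the dim corner was chosen after seeing the data. Residuals of arrays with the same replicate number correlated by -0.036, 0.013 and 0.054. Some traits did follow the number. Ddx3y was above background on replicate 1 of both groups only, though its probe lies in the dim corner on replicate 2 at 0 cGy. The exocrine share fell from replicate 1 to replicate 3 in both groups. Whether the numbers pair the arrays is thus not settled. Values of a few genes are not reported here.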

Additional observations from a re-analysis of the deposited data

Results flagged for a closer look

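The response to 300 cGy differed between the strains for 69 of the 178 genes checked, by the limma test of the difference itself with Benjamini-Hochberg adjustment. Over all 29524 features it differed for 3217 (10.9%). Many of the 178 genes were chosen for large changes or large strain differences, so their share is not a rate for genes at large. The values below are log2 changes in BALB.K minus those in B10.BR, 45 of them negative and 24 positive.

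Most cell cycle genes named had a lower change in BALB.K than in B10.BR. In mitosis and DNA synthesis the differences were -1.77 for Ccna2, -1.68 for Ccnb2, -1.41 for Mki67, -2.08 for Nusap1, -1.37 for Cdc20, -1.39 for Rrm2 and -1.79 for Top2a. In licensing they were -1.14 for Mcm2, -1.98 for Mcm10, -1.50 for Mcm6, -1.84 for Cdc6 and -1.18 for Orc1. At the G1 boundary they were -1.75 for Ccne1, -2.20 for E2f7, -1.01 for E2f2, -0.57 for Cdkn2b, -1.33 for Cdkn2c and -0.72 for Cdkn2d, with 0.54 for Rbl2 on the other side. In repair they were -2.20 for Brca1, -1.16 for H2ax and -0.82 for Chek2, and 0.77 for Lig4.

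Among p53 targets the differences were -0.71 for Psrc1, -0.71 for Gadd45a, -1.50 for Gtse1, -1.55 for Pidd1, -0.69 for Siva1 and 0.49 for Tnfrsf10b, and the survival gene Bcl2l1 had -0.97. Red cell genes had -1.25 for Gata1, -1.28 for Tal1, -1.39 for Epor, -0.83 for Abcb10, -1.22 for Blvrb and -1.18 for Icam4, against 1.97 for Rhd and 1.11 for Car1. Slc30a10 and Slc25a21, which are in no list, had -1.51 and 1.58. Oxidative stress genes had -1.02 for Nqo1, -1.04 for Gclc and -0.71 for Gpx1.

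Most lymphocyte genes in this set had a higher change in BALB.K, with 0.51 for Ebf1, 0.43 for Irf8, 0.47 for Cd3e, 0.72 for Dapl1, 1.27 for Lef1, 0.46 for Foxp3, 0.75 for Sdc1, 0.54 for Tnfrsf17 and 0.93 for Pdia4, and Cd24a had -1.07. In the interferon lists the differences were 3.16 for Ifi202b, which has near copies that the probe may also read, 0.48 for Nlrc5, -1.13 for Rsad2 and -1.46 for Irf7. Stromal and myeloid genes had 0.94 for Matn1, a corner gene with 0.74 without the corner, 1.03 for Mmp13, 1.03 for Ccl19, 1.05 for Clec10a and -0.77 for Col5a1. Genes named for the size of their strain difference had 3.91 for Gm7468, a corner gene with 3.15 without the corner, 2.88 for the matricellular gene Ccn1, -3.62 for Nxpe4, -3.49 for the receptor kinase Mst1r, -3.44 for the lipid glycosyltransferase Ugt8a and -3.03 for Nxpe2, and the carboxypeptidase Cpm had 0.49. Mst1r is a corner gene as well, with the same value without the corner.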

How the results depend on the processing

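Of the comparison of 300 with 0 cGy, 13816 features were called, and 11911 to 14555 when 1 array was left out at a time (5633 to 6066 higher, 6029 to 8489 lower). The count left the range of 1.5 times with spike-in scaling, which rests on 10 probes (6430, 2764 higher and 3666 lower), and with the 6 arrays alone (8182, 4018 lower), and median scaling gave 4771 lower. Of 178 genes checked, 18 lost their call with spike-in scaling, 19 with slide as a block and 20 with the 6 arrays alone. With the replicate number as a block, although pairing by that number is not settled, 14193 features were called, and 175 of the 178 genes stayed on their side. With the exocrine level as a covariate 13026 were called. Changes of sign were Siva1 to 0.064 with the mean of its probes, and Lmo2 to -1.40 and Xrcc6 to -0.93 both without the corner and without replicate 2 at 0 cGy. Over the arrays left out 1 at a time, Lmo2 had -1.40 to 1.23 and Xrcc6 -0.93 to 1.48. The direction of the median of gene lists changed in at most 2 of 47 lists under any alternative.

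The contrast of 400 with 300 cGy was less stable. Against 1405 calls (933 higher, 472 lower), leaving out 1 array gave 254 to 2415 (138 to 1689 higher, 103 to 788 lower). Median scaling gave 5162 (599 higher, 4563 lower), spike-in scaling 283 (282 higher, 1 lower), slide as a block 2175 (796 lower), leaving out replicate 1 of both groups 3428 (2267 higher, 1161 lower), the deposited matrix 520 (362 higher, 158 lower), the exocrine covariate 600 (327 higher, 273 lower) and quantile normalization 509 higher.

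For the strain difference, against 3217 calls (1436 higher, 1781 lower), leaving out 1 BALB.K array at 0 or 300 cGy gave 2240 to 4752 (1056 to 1824 higher, 1184 to 2928 lower). The B10.BR arrays were not left out in turn. Median scaling gave 5205 (4112 higher, 1093 lower), spike-in scaling 1197 (23 higher, 1174 lower), leaving out replicate 1 of both groups 4884 (2982 lower) and slide as a block 715 higher. Strain differences that changed sign were Cdkn1a to -1.24 and Siva1 to 0.17 with the mean of probes, Rhd to -0.25 and Slc25a21 to -0.80 with normexp, and Irf8 to -0.055, Cd3e to -0.0094, Foxp3 to -0.024 and Nlrc5 to -0.0038 with spike-in scaling. The cause of these changes was not tested. Signal over background limits the dim genes, whose changes normexp made smaller.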
